A study of Mus musculus with 10 samples.

Results

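Expression of hypoxia and glycolysis genes was examined in the RNA of whole tumors of 4T1, a line of mouse triple-negative mammary carcinoma. The list holds 42 of the 17864 genes counted, all of them known targets of the hypoxia-inducible factor (HIF), its subunits and hydroxylases, or enzymes and transporters of glycolysis, with Stc1 as the gene it was built around. Members were taken by symbol, and 42 of 42 were found and had enough reads to be tested, none of them below 70 counts in any tumor. The list was drawn up with results of the same contrast known. Stc1 was put on it by name for its difference between the groups, so that its values are given as a description without a test, and it is left out of every count of genes that passed a test. Counts of members are printed beside the share over all genes, with nothing read from them.

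The contrast was between 5 sgCon tumors, from 4T1 cells with Cas9 and a control guide RNA, and 5 sgTaz tumors, from 4T1 cells with Cas9 and a guide RNA against Wwtr1, the gene of the Hippo pathway effector TAZ. The methods describe orthotopic tumors, with cells placed in the mammary fat pad of young female BALB/c or SCID mice. Which of these hosts gave the sequenced tumors, whether each tumor came from a mouse of its own and whether the sgTaz cells were a clone or a pool are not stated in the sources used here. The p-values therefore measure the spread between these tumors. Only the injected cells carried the guide RNA, and the host cells of an sgTaz tumor kept Wwtr1.

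HIF is a transcription factor of an oxygen-regulated α subunit, encoded by Hif1a or Epas1, and the constant partner ARNT. When oxygen is present, prolyl hydroxylases of the Egln family mark the α subunit for the VHL ubiquitin ligase, so that HIF is regulated mostly as a protein and less by its mRNA. When oxygen is low, HIF binds a short core motif, ACGTG or GCGTG, and raises genes of glucose uptake, glycolysis, pH control, mitochondrial turnover and its own hydroxylases. Tumors often carry this programme both in poorly perfused regions and, for glycolysis, in well perfused ones.

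Promoter sequences of RefSeq (build GRCm38.p6) were available for 37 of the 42 members, with 54 windows from 250 bases before to 50 bases after a start. The HIF core, read as ACGTG or GCGTG on either strand with overlapping matches counted, was found in 42 of the 54 windows, or 77.8%. It was found in 60.1% of 13881 windows of all genes tested and in 43.8% of all 32851 windows. The core motif of TEAD factors, the DNA-binding partners of TAZ, was read as GGAATG on either strand and was found in 5 of the 54 windows, or 9.26%, against 12.5% of the windows of genes tested. A match of 5 or 6 letters is a description of the sequence and not a bound site. Shown here are the bases before the start for Egln3, of the 41 members other than Stc1 the only one higher in sgTaz tumors at an unadjusted p below 0.05 (edgeR), for Ldha, whose groups did not overlap, and for Pgk1 and Slc2a1, long-known HIF targets of glycolysis and glucose uptake. Each is written 5′ to 3′ along the gene, with the HIF core, or its reverse complement, in capitals. The Egln3 window is chr12:54203875-54204124 on the minus strand, that of Ldha is chr7:46845554-46845803, that of Pgk1 is chrX:106186850-106187099 and that of Slc2a1 is chr4:119108495-119108710, which ends 35 bases before the start, the last 3 on the plus strand.
Egln3: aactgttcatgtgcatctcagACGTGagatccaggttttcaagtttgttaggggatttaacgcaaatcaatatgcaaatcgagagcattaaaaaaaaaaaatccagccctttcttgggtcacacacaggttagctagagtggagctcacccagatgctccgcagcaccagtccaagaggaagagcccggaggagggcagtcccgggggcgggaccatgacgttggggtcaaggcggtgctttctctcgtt
Ldha: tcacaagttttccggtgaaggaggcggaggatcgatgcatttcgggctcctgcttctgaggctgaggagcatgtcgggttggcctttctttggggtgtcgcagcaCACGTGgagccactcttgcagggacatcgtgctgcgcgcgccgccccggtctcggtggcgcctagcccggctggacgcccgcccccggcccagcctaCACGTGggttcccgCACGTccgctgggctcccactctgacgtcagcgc
Pgk1: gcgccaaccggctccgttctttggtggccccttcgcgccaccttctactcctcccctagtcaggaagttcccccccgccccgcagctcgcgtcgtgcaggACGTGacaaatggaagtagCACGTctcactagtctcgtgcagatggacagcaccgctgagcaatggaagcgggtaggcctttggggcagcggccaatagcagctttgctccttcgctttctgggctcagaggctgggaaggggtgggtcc
Slc2a1: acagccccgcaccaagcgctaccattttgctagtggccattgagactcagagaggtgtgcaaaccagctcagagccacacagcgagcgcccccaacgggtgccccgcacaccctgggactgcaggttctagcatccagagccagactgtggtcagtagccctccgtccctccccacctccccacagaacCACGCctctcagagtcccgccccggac
The Ldha stretch holds 5 matches, because each of its copies of CACGTG reads as the core on both strands, that of Pgk1 holds 2, and those of Egln3 and Slc2a1 hold 1 each.

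Total counts ranged from 14753922 to 19595821 (sgCon) and from 12185383 to 18395558 (sgTaz). Levels are given as CPM, the count of a gene scaled to the TMM-normalized library size. Wwtr1 itself was at 192, 181, 115, 171 and 156 CPM in sgCon tumors 1 to 5 and at 86.6, 104, 109.9, 139 and 102 CPM in sgTaz tumors 1 to 5. It was lower in sgTaz tumors by a log2 fold change of -0.59 ± 0.15 (SE; edgeR, adjusted p = 0.096), with the value of sgCon tumor 3 inside the range of the sgTaz tumors. Adjusted p for Wwtr1 was 0.0127 in DESeq2, 0.0280 in limma-voom and between 0.0127 and 0.233 over all alternatives. The label calls the samples tumor cells, but the tumors held RNA of other cells as well. The summed level of 8 epithelial markers, the class of the 4T1 cells, was at 2108 to 4967 CPM in sgCon tumors and at 1609 to 3858 CPM in sgTaz tumors, with no marker at 0. Within the sgTaz group, tumor 2 stood apart at 3858 CPM, since the other 4 were at 1609 to 2150 CPM. The sum of 8 B cell markers was at 64.6 to 875 CPM in sgCon tumors and 201 CPM in sgTaz tumor 5, against 0.955 to 13.8 CPM in the other 4 sgTaz tumors, with Ms4a1, Cr2, Fcer2a and Blk at 0 in some tumor. Lymph node stroma markers followed the same tumors, at 73.3 to 811 CPM in sgCon, 469.96 CPM in sgTaz 5 and 33.8 to 63.6 CPM in the others. Values without sgTaz tumor 2 or 5 are given beside the members that they move most.

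Stc1 was 2.54-fold and Egln3, a HIF hydroxylase gene, 1.56-fold the sgCon level in sgTaz tumors. Lower in sgTaz tumors were the glucose transporters Slc2a3 (0.536-fold) and Slc2a1 (0.757-fold), the mitochondrial gene Higd1a (0.666-fold), the carbonic anhydrase gene Car9 (0.695-fold) and the mTORC1 inhibitor gene Ddit4 (0.720-fold), while the glycolytic enzymes were at 0.757-fold to 1.13-fold. Stc1 is described without a test, and none of the others named here passed the test of edgeR after adjustment over all genes. Of the 41 members other than Stc1, 0 were called higher and 0 lower after adjustment in edgeR (p below 0.05), where 0.00675% of all 14816 genes tested were higher and 0% lower. At an unadjusted p below 0.05, 1 member, Egln3, was higher (9.86% of all genes were), 10 were lower (11.9% of all genes were) and 30 were neither. The log2 fold change was negative in 28 of these 41 members, and in 53% of all genes. Its median was -0.093 over the 41 members and -0.019 over all genes. Groups did not overlap in 0 of them with higher values in sgTaz tumors (2.44% of all genes) and in 2 with lower values, Higd1a and Ldha (2.13% of all genes). DESeq2 called 1 member, again Egln3, higher and 4 lower after adjustment (Slc2a3, Ldha, Higd1a and Ddit4), against 3.68% of all genes in each direction. The weighted limma-voom fit called 1 higher (Egln3) and 7 lower, against 4.63% and 5.8% of all genes. The 7 lower were Slc2a1, Slc2a3, Pgk1, Ldha, Car9, Bnip3 and Higd1a. Before adjustment this fit called 16 lower, against 16.8%. These shares come from the contrast with which the list was drawn up.

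**Figure D1:**
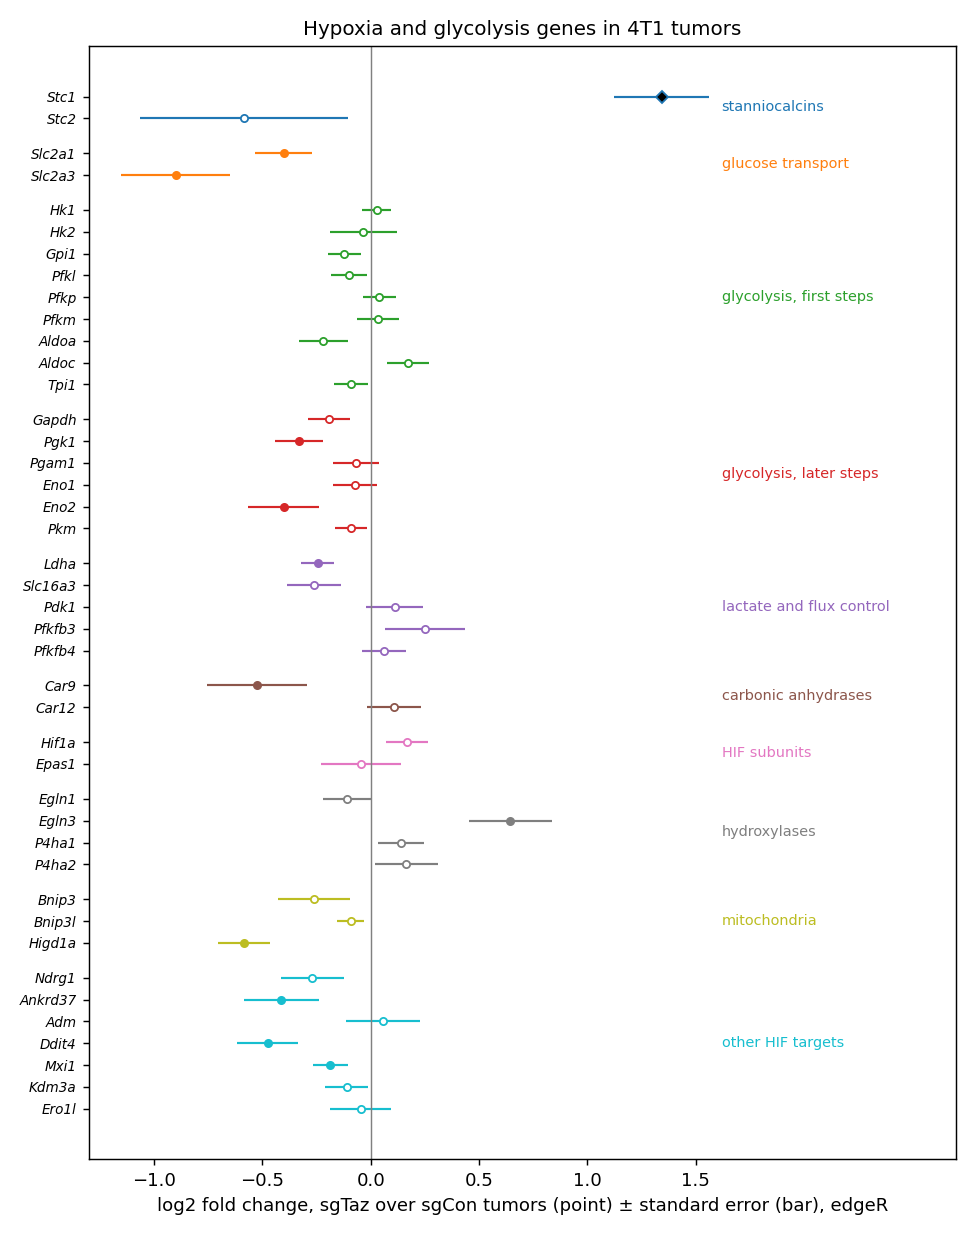
Log2 fold change of each of the 42 members between sgTaz and sgCon tumors (point) with its standard error (bar) from edgeR, grouped by role. Filled circles have an unadjusted p below 0.05, open circles do not, and the black diamond is Stc1, which is described without a test. Stc1 at 1.34 and Slc2a3 at -0.90 lie at the 2 ends, and the glycolytic enzymes lie between -0.40 and 0.17.

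Stc1 (ENSMUSG00000014813) encodes stanniocalcin-1, a secreted glycoprotein that acts on calcium and phosphate handling and is induced by hypoxia in many cells. It lies on the plus strand of chromosome 14 from 69029238 to 69041804 and was at 20.96, 38.8, 36.3, 39.8 and 32.7 CPM in sgCon tumors 1 to 5. In sgTaz tumors 1 to 5 it was at 128, 97.0, 65.2, 70.6 and 67.0 CPM. Every sgTaz tumor was above every sgCon tumor, and sgTaz tumors 1 and 2 were the highest. The mean was 33.7 ± 7.64 CPM in sgCon and 85.5 ± 26.9 CPM in sgTaz tumors (SD, n = 5 each), a log2 fold change of 1.34 ± 0.22 (SE), or 2.54-fold. It was 1.42 without sgTaz tumor 5, 1.29 without sgTaz tumor 2, and between 1.15 and 1.43 over all 10 fits that left out a tumor. RNA of fewer cells of a type and less RNA per cell cannot be told apart in whole tumors, here or for any other member. The 2 sgTaz tumors with the most Stc1 were at opposite ends for epithelial RNA, since sgTaz 1 had the lowest sum of the 8 epithelial markers of all tumors, 1609 CPM, and sgTaz 2 the highest of its group. Macrophage markers, of which 8 of 8 had a positive log2 fold change, summed to 759 to 1787 CPM in sgCon and 1478 to 2068 CPM in sgTaz tumors. Their part in the level of Stc1 was not tested. Exons of Stc1 overlap those of Gm41192, on the opposite strand, over 229 of 4197 bases, and whether the counting used the strand is not stated.

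The paralogue Stc2, also a secreted stanniocalcin, was at 6.43, 7.31, 30.1, 3.89 and 17.0 CPM in sgCon tumors and at 10.3, 7.94, 11.4, 5.99 and 7.35 CPM in sgTaz tumors. The groups overlapped, and only sgCon tumors 3 and 5 were above 11.4 CPM. These had the most B cell RNA (875 and 404 CPM) and the most lymph node stroma RNA (811 and 267 CPM) of their group. Its log2 fold change was -0.58 ± 0.48 (SE; edgeR, adjusted p = 0.497) and 0.01 without sgCon tumor 3. Of the reads of both stanniocalcins per kilobase of exon, Stc1 held 59.8% to 92.7% in sgCon tumors (median 80.1%) and 87.6% to 93.9% in sgTaz tumors (median 93.6%).

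Egln3, which encodes the HIF prolyl hydroxylase PHD3 and is itself a strong HIF target (promoter shown above), was at 139, 201, 288, 227 and 143 CPM in sgCon tumors. It lies on the minus strand of chromosome 12 from 54178981 to 54203860. In sgTaz tumors it was at 358, 265, 358, 307 and 272 CPM. All sgTaz tumors were above 4 of the 5 sgCon tumors, and only sgCon tumor 3 reached into their range. This was a log2 fold change of 0.65 ± 0.19 (SE; edgeR, adjusted p = 0.114), or 1.56-fold, which was between 0.54 and 0.82 with a tumor left out. Adjusted p was 0.0258 in DESeq2 and between 0.0229 and 0.259 over all alternatives. The other hydroxylases of the list did not pass in edgeR with all 10 tumors. Egln1, which encodes PHD2, the main oxygen sensor of HIF-1α, was at 111 to 121 CPM in sgCon tumors and at 86.3 to 139 CPM in sgTaz tumors, with a log2 fold change of -0.11 with all tumors and -0.22 without sgTaz tumor 2. P4ha1 and P4ha2, which hydroxylate collagen, had log2 fold changes of 0.14 ± 0.11 and 0.16 ± 0.14 (SE).

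The mRNA of the HIF α subunits overlapped between the groups. Hif1a was at 244, 289.6, 229, 228 and 258 CPM in sgCon tumors and at 266, 239, 283, 323 and 291 CPM in sgTaz tumors. Its groups overlapped, with a log2 fold change of 0.17 ± 0.10 (SE; edgeR, adjusted p = 0.324), and 0.22 without sgTaz tumor 2. With a tumor left out it was between 0.11 and 0.23. Epas1, which encodes HIF-2α and is abundant in endothelial cells, was at 35.8, 46.8, 67.4, 49.7 and 48.6 CPM in sgCon tumors and at 42.9, 38.1, 46.5, 44.3 and 69.0 CPM in sgTaz tumors. The highest values were in sgCon 3 and sgTaz 5, each the tumor with the most lymph node stroma RNA of its group, at 811 and 469.96 CPM of those markers. The sum of 8 endothelial markers was 466 CPM in sgCon 3, the lowest of its group, and 696 CPM in sgTaz 5, while sgTaz 4 held the most at 744 CPM. The part of either cell type in Epas1 was not tested. The log2 fold change of Epas1 was -0.04 ± 0.18 (SE; edgeR, adjusted p = 0.911) and -0.21 without sgTaz tumor 5.

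**Figure D2:**
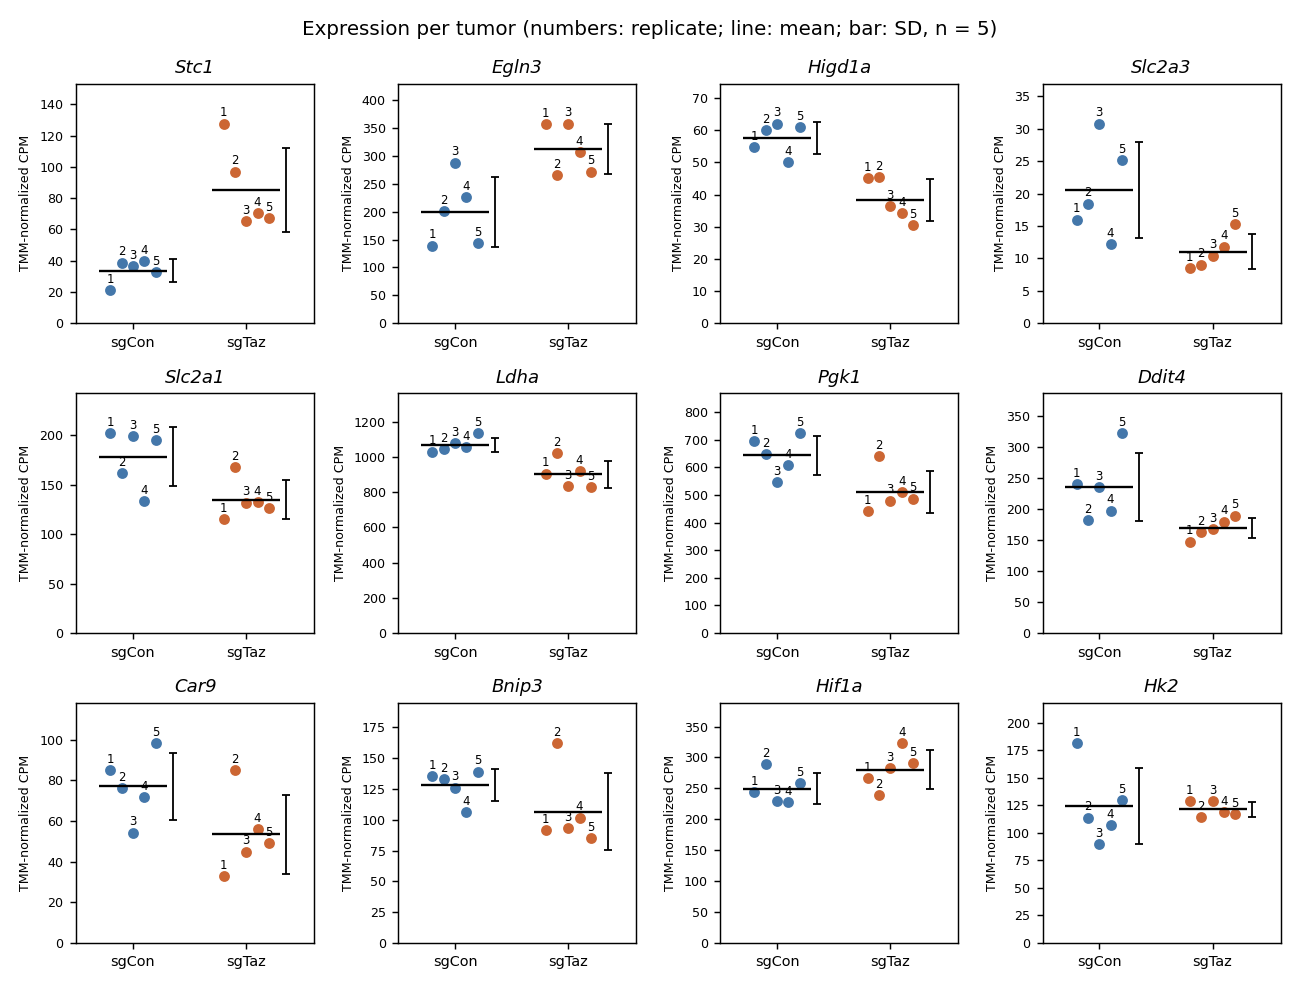
TMM-normalized CPM of 12 members in each tumor (y axes from 0). Points carry the replicate number, lines are means and bars SD (n = 5 per group). Stc1, Higd1a and Ldha show groups that do not overlap, and sgTaz tumor 2 is the highest sgTaz point for Car9, Bnip3, Slc2a1, Ldha and Pgk1.

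Both glucose transporters of the list were lower in sgTaz tumors at an unadjusted p below 0.05 in edgeR, and neither passed there after adjustment. Slc2a1 encodes GLUT1, the main glucose carrier of many carcinoma cells. It was at 202, 162, 199, 133 and 195 CPM in sgCon tumors and at 115, 168, 132, 132 and 127 CPM in sgTaz tumors, so that the groups overlapped, with sgTaz 2 above sgCon 2 and 4. Slc2a1 had a log2 fold change of -0.40 ± 0.13 (SE; edgeR, adjusted p = 0.132) and -0.49 without sgTaz tumor 2. With a tumor left out it was between -0.49 and -0.35. Its adjusted p was 0.0648 in DESeq2, 0.0329 in limma-voom and between 0.0329 and 0.310 over all alternatives. Slc2a3 encodes GLUT3, a carrier of high affinity found in neurons and leukocytes. It was at 16.0, 18.5, 30.8, 12.2 and 25.2 CPM in sgCon tumors and at 8.47, 9.04, 10.4, 11.8 and 15.3 CPM in sgTaz tumors. The groups overlapped, as sgTaz 5 was above sgCon 4. For Slc2a3 the log2 fold change was -0.90 ± 0.25 (SE; edgeR, adjusted p = 0.101), the most negative of the list. It was -1.04 without sgTaz tumor 5 and -0.70 without sgCon tumor 3. Adjusted p for Slc2a3 was 0.0174 in DESeq2, 0.0344 in limma-voom and between 0.0174 and 0.244 over all alternatives. Its order in sgCon tumors was that of the B cell marker sum, which was 875 CPM in sgCon 3, 404 in sgCon 5, 202 in sgCon 2, 134 in sgCon 1 and 64.6 in sgCon 4. Lymph node stroma markers had the same order in sgCon tumors, from 811 CPM in sgCon 3 to 73.3 CPM in sgCon 4. In sgTaz tumors the order of Slc2a3 was that of neutrophil markers, at 68.7, 109, 174.87, 175.45 and 272 CPM in tumors 1 to 5. That order did not hold in sgCon tumors, where sgCon 3 had the lowest neutrophil sum, 176 CPM. B cell markers were also highest in sgTaz 5, but were at 13.8 CPM in sgTaz 3 and 2.75 CPM in sgTaz 4. The part of any of these cells in Slc2a3 was not tested. These lists are among 10 that were summed, and a match of order over 5 tumors is a description only. Per kilobase of exon, Slc2a1 held 93.0% to 96.3% of the reads of both transporters in sgCon tumors and 94.5% to 97.5% in sgTaz tumors.

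Of the 15 glycolytic enzymes, from hexokinase to pyruvate kinase, 0 were higher and 2 were lower in sgTaz tumors before adjustment in edgeR (9.86% and 11.9% of all genes), and their median log2 fold change was -0.090 (-0.019 over all genes). None of the 9 enzymes of the first steps passed in edgeR with all 10 tumors, even before adjustment. Hk2, the hexokinase most often raised in tumors, was at 181, 114, 89.9, 107 and 129.6 CPM in sgCon tumors and at 129, 114, 129, 118 and 117 CPM in sgTaz tumors. Hk2 had a log2 fold change of -0.03 ± 0.16 (SE; edgeR, adjusted p = 0.919), and its sgTaz tumors lay inside the range of the sgCon tumors. Hk1, Gpi1 and the phosphofructokinases Pfkl, Pfkp and Pfkm had log2 fold changes between -0.12 and 0.04. Aldoa and its brain isoform Aldoc had log2 fold changes of opposite sign, -0.22 ± 0.11 and 0.17 ± 0.10 (SE), and neither passed the test (edgeR, adjusted p = 0.284 and 0.331). For Aldoa it was between -0.29 and -0.15 with a tumor left out. The value of -0.29 was without sgTaz tumor 2, where Aldoa passed before adjustment. Tpi1, which interconverts the products of aldolase, was at -0.09 ± 0.08 (SE).

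In the later steps, which yield ATP, all 6 members had a negative log2 fold change, as 53% of all genes did, and 2 of them, Pgk1 and Eno2, were lower before adjustment in edgeR (11.9% of all genes). Pgk1, which encodes phosphoglycerate kinase, was at 696, 648, 547, 608 and 723 CPM in sgCon tumors and at 441, 641, 479.9, 512 and 487 CPM in sgTaz tumors. Apart from sgTaz tumor 2, every sgTaz tumor was below every sgCon tumor. Pgk1 had a log2 fold change of -0.33 ± 0.11 (SE; edgeR, adjusted p = 0.139) and -0.42 without sgTaz tumor 2. Over all fits that left out a tumor it was between -0.42 and -0.28. Adjusted p for Pgk1 was 0.0702 in DESeq2, 0.0254 in limma-voom and between 0.0254 and 0.295 over all alternatives. Eno2, the enolase of neurons, was at 22.4, 23.5, 37.2, 23.4 and 33.4 CPM in sgCon tumors and at 24.7, 23.3, 17.4, 20.3 and 20.1 CPM in sgTaz tumors, with the 2 highest values again in sgCon tumors 3 and 5. Its log2 fold change was -0.40 ± 0.16 (SE; edgeR, adjusted p = 0.192). Gapdh, Pgam1, Eno1 and Pkm had log2 fold changes between -0.19 and -0.07, and none passed before adjustment in edgeR with all 10 tumors. Gapdh was at -0.25 without sgTaz tumor 2 and at -0.24 in limma-voom, and passed before adjustment in both. With a tumor left out, Gapdh ranged from -0.25 to -0.14.

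Ldha, which encodes the lactate dehydrogenase subunit that turns pyruvate into lactate (promoter shown above), was at 1031, 1047, 1081, 1056 and 1135 CPM in sgCon tumors. In sgTaz tumors it was at 906, 1021, 837, 921 and 831 CPM. Every sgTaz tumor was below every sgCon tumor, although sgTaz 2 was only just so. The log2 fold change was -0.24 ± 0.08 (SE; edgeR, adjusted p = 0.119), or 0.844-fold, and it was between -0.29 and -0.21 with a tumor left out. Adjusted p was 0.0308 in DESeq2 and between 0.0282 and 0.291 over all alternatives. Slc16a3, which encodes the lactate exporter MCT4, had a log2 fold change of -0.26 ± 0.12 (SE; edgeR, adjusted p = 0.246). Pdk1, the kinase that closes the entry of pyruvate into the mitochondrial cycle, was at 34.4, 24.7, 26.1, 25.8 and 25.1 CPM in sgCon tumors and at 27.2, 29.3, 31.7, 35.4 and 23.4 CPM in sgTaz tumors, and its groups overlapped over most of their range. For Pdk1 the log2 fold change was 0.11 ± 0.13 (SE). The bifunctional enzymes Pfkfb3 and Pfkfb4, which set the level of the activator of phosphofructokinase, had log2 fold changes of 0.25 ± 0.19 and 0.06 ± 0.10 (SE). Pfkfb3 was at 0.38 without sgTaz tumor 2, and between 0.17 and 0.38 over all fits that left out a tumor.

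**Figure D3:**
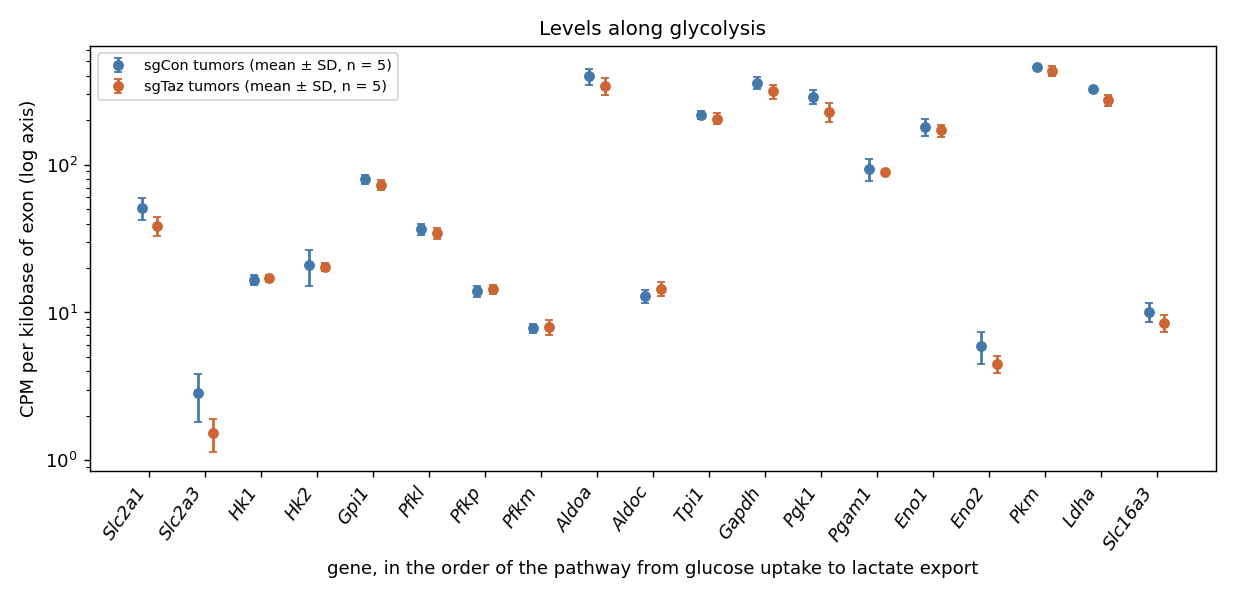
Mean level ± SD (n = 5 per group) of transporters and enzymes in CPM per kilobase of exon on a log axis, ordered from glucose uptake to lactate export. Pkm, Aldoa, Gapdh, Ldha and Pgk1 are at the top, between 228 and 459, and the points of both groups are farthest apart at Slc2a3.

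Per kilobase of exon, levels in sgCon tumors were highest for Pkm (459 ± 11.5 CPM per kilobase, SD, n = 5), followed by Aldoa (397 ± 49.9), Gapdh (359 ± 32.0) and Ldha (323 ± 12.2), neighbours whose means ± SD overlap except for Pkm and Aldoa. Levels of the minor isoforms Aldoc, Eno2 and Pfkm were at 5.95 to 12.9 CPM per kilobase. Aldoa held 96.3% to 97.4% of the aldolase reads per length in sgCon tumors and 95.0% to 96.3% in sgTaz tumors. Ldha likewise held 97.1% to 98.0% and 95.1% to 98.1% of the reads of Ldha and Ldhb. All 15 enzymes and the remaining members were counted by annotated gene, and several have near-identical copies elsewhere. The 50-base stretches of the longest transcript of each member were looked up in the transcripts of other annotated genes. The share found there was 72.2% for Eno1, 68.0% for Pgk1, 41.5% for Pgam1 and 34.4% for Pkm. It was 27.2% for Gapdh, 23.4% for Bnip3l, 21.9% for Bnip3 and 16.6% for Ldha. The gene that shares most is a pseudogene for all of them but Eno1, where it is Eno1b. Levels of these genes are therefore uncertain, and by how much was not tested. Among other members, exons of genes on the opposite strand overlap Bnip3 over 504 of 2265 bases, Ankrd37 over 406 of 1539 bases and Car9 over 214 of 2304 bases. On the same strand, exons of other genes overlap Pkm over 767 of 5001 bases, Pfkm over 341 of 3340 bases and Hif1a over 148 of 5896 bases.

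Car9, a membrane carbonic anhydrase that acts in pH control and is widely used as a marker of hypoxic tumor cells, was at 85.0, 76.1, 54.3, 71.6 and 98.3 CPM in sgCon tumors. In sgTaz tumors it was at 33.0, 84.9, 44.9, 56.1 and 49.0 CPM. The value of sgTaz 2 lay among the highest sgCon tumors, and of the other 4 only sgTaz 4 was above the lowest sgCon tumor. Its log2 fold change was -0.52 ± 0.23 (SE; edgeR, adjusted p = 0.213) and -0.75 without sgTaz tumor 2. With each tumor left out in turn it was between -0.75 and -0.39. Adjusted p for Car9 was 0.156 in DESeq2, 0.0307 in limma-voom and between 0.0307 and 0.402 over all alternatives. Car12, of the same family and also on the cell surface, had a log2 fold change of 0.11 ± 0.13 (SE).

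Higd1a, on the minus strand of chromosome 9 from 121848563 to 121858362, encodes a small protein of the inner mitochondrial membrane that is induced by hypoxia and associates with the respiratory chain. It was at 54.8, 59.9, 62.1, 50.2 and 60.9 CPM in sgCon tumors and at 45.0, 45.4, 36.4, 34.2 and 30.5 CPM in sgTaz tumors. No sgTaz tumor reached the lowest sgCon tumor. Its log2 fold change of -0.59 ± 0.12 (SE; edgeR, adjusted p = 0.0824), or 0.666-fold, had the smallest p of the 41 members other than Stc1. It was -0.65 without sgTaz tumor 2, where the adjusted p was 0.0498, and -0.51 without sgTaz tumor 5. Over all alternatives the adjusted p was between 0.0020, in DESeq2, and 0.233. Exons of Higd1a overlap those of Gm47112, on the opposite strand, over 683 of 3040 bases.

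Bnip3, a receptor for the removal of mitochondria by autophagy, was at 135, 133, 126, 106 and 139 CPM in sgCon tumors and at 91.3, 162, 93.0, 102 and 85.3 CPM in sgTaz tumors. In the sgTaz group tumor 2 was the highest of all 10 tumors, and the other 4 were below every sgCon tumor. The log2 fold change was -0.26 ± 0.16 (SE; edgeR, adjusted p = 0.370), -0.46 without sgTaz tumor 2 and -0.19 without sgTaz tumor 5. Adjusted p for Bnip3 was 0.398 in DESeq2, 0.0468 in limma-voom and between 0.0468 and 0.570 over all alternatives. Its relative Bnip3l had a log2 fold change of -0.09 ± 0.06 (SE).

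Of the 7 other HIF targets on the list, 0 were higher and 3 were lower in sgTaz tumors before adjustment in edgeR, beside 9.86% and 11.9% of all genes. Ddit4, which encodes REDD1, an inhibitor of mTORC1 signalling, was at 240.0, 182, 236, 197 and 322 CPM in sgCon tumors and at 147, 162, 168, 179.6 and 189 CPM in sgTaz tumors. Only sgCon tumor 2 lay within the range of the sgTaz tumors. Ddit4 had a log2 fold change of -0.47 ± 0.14 (SE; edgeR, adjusted p = 0.114). Ankrd37, an ankyrin repeat gene induced by HIF, was at 13.1, 11.4, 15.6, 12.05 and 19.9 CPM in sgCon tumors and at 12.3, 8.85, 10.1, 12.5 and 10.2 CPM in sgTaz tumors. The groups overlapped, with the highest value in sgCon 5, and the log2 fold change was -0.41 ± 0.17 (SE; edgeR, adjusted p = 0.198). Mxi1, an antagonist of Myc, was at 57.8, 52.3, 54.3, 60.0 and 60.1 CPM in sgCon tumors and at 45.7, 57.5, 46.2, 49.0 and 51.6 CPM in sgTaz tumors. Without sgTaz tumor 2 its groups would not overlap, and its log2 fold change was -0.19 ± 0.08 (SE; edgeR, adjusted p = 0.217). Ndrg1, Adm, Kdm3a and Ero1l, which encode a stress-induced cytoplasmic protein, the vasodilator adrenomedullin, a histone demethylase and an oxidase of protein folding, had log2 fold changes between -0.27 and 0.06. Ndrg1, at -0.27, was at -0.42 without sgTaz tumor 2, and between -0.42 and -0.18 over all fits that left out a tumor.

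**Figure D4:**
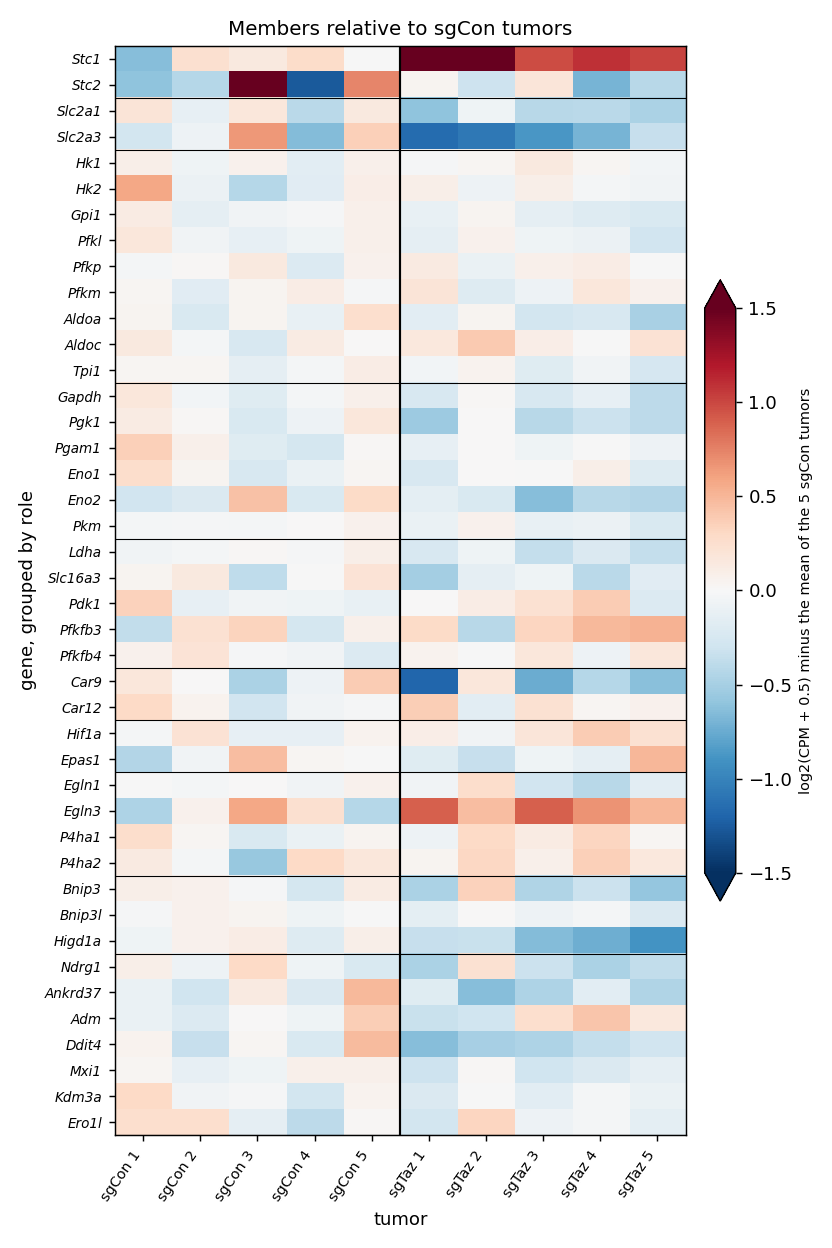
Log2(CPM + 0.5) of the 42 members in each tumor minus the mean of the 5 sgCon tumors, with rows grouped by role and colours limited to ±1.5. The Stc1 and Egln3 rows are red in every sgTaz tumor, while the column of sgTaz tumor 2 is redder than its neighbours in many rows.

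Among the sgTaz tumors, tumor 2 had the highest value in 20 of the 42 members and in 6 of the 10 members that were lower in the group. The lowest values of the group were most often in sgTaz tumors 1 (15 members) and 5 (12 members), followed by sgTaz tumor 2 itself (9 members). In the sgCon group, tumors 1 and 5 were the highest in 14 and 13 members. Without sgTaz tumor 2, 3 of the 41 members other than Stc1 were higher before adjustment in edgeR (11.1% of all genes were), Hif1a and Pfkfb3 besides Egln3, and 14 were lower (13.4% of all genes were). Aldoa, Gapdh, Egln1, Bnip3 and Ndrg1 were added to the lower ones and Ankrd37 no longer passed. After adjustment 0 were higher and 1, Higd1a, was lower (0.266% and 0.233% of all genes). Without sgTaz tumor 5 the counts were 1 higher and 6 lower before adjustment (8.59% and 11.6% of all genes), and 0 and 0 after it (0.28% and 0.868% of all genes). Epithelial markers, of which 8 of 8 had a negative log2 fold change, were most abundant in sgTaz 2 within its group, and sgTaz 5, with the second highest sum at 2150 CPM, held the lowest value of the group in 12 members. The part of epithelial RNA in the members' values was not tested.

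**Figure D5:**
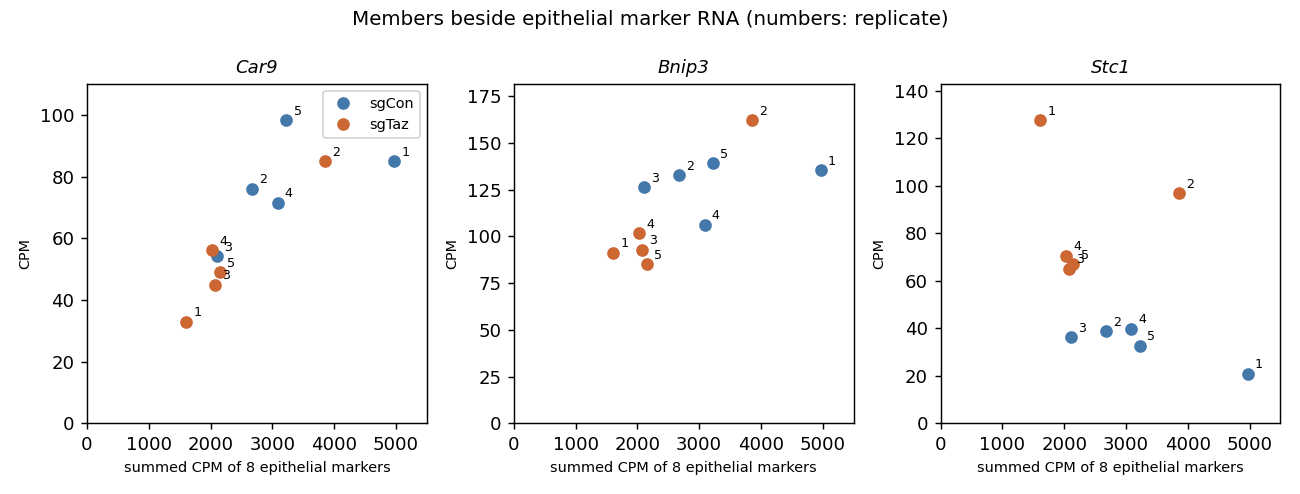
CPM of Car9, Bnip3 and Stc1 (y axes) against the summed CPM of 8 epithelial markers (x axis) in each tumor, with replicate numbers beside the points. The sgTaz tumor with 3858 CPM of epithelial markers is tumor 2, at 84.9 CPM of Car9 and 162 CPM of Bnip3, and the other 4 sgTaz tumors are at 33.0 to 56.1 and 85.3 to 102 CPM. Of the sgCon tumors, tumor 1 has the most epithelial marker RNA (4967 CPM), but Car9 and Bnip3 are highest in tumor 5 (3226 CPM). Car9 is lowest in sgCon tumor 3, which has the least (2108 CPM), and Bnip3 in sgCon tumor 4 (3087 CPM).

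Genes of the same pathways outside the list were taken from 4 further lists with 90 genes, of which 83 were in the table and 78 were tested. In edgeR 0 passed after adjustment and 19 at an unadjusted p below 0.05, 10 higher and 9 lower, where 9.86% and 11.9% of all genes were, and DESeq2 called 6 higher and 3 lower after adjustment, where 3.68% of all genes were called in each direction. Groups did not overlap in 2 genes higher in sgTaz tumors (2.44% of all genes) and in 2 lower (2.13%), which are Tgfb3, Eno3, Hif1an and Cited2. Among 40 other HIF targets, 4 were higher and 5 lower before adjustment, beside 9.86% and 11.9% of all genes. Tgfb3, which encodes a ligand of the TGF-β family, was at 94.1 to 152 CPM in sgCon and at 162 to 178 CPM in sgTaz tumors, without overlap (log2 fold change 0.57 ± 0.11, SE; edgeR, adjusted p = 0.0824). Cp, which encodes the iron-oxidizing plasma protein ceruloplasmin, and Nampt, an enzyme of NAD salvage, had log2 fold changes of 0.50 ± 0.15 and 0.24 ± 0.07 (SE), and Hilpda, a lipid droplet protein, of -0.55 ± 0.17 (SE).

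In the oxygen sensing list, 13 genes were tested, 1 of them higher and 4 lower before adjustment, beside the same 9.86% and 11.9% of all genes. Hif1an encodes FIH, the asparagine hydroxylase that keeps HIF from its coactivators, and was at 43.8 to 52.5 CPM in sgCon and at 34.7 to 39.5 CPM in sgTaz tumors. Cited2 encodes a protein that competes with HIF for the same coactivators, and was at 53.4 to 75.6 CPM in sgCon and at 38.4 to 52.0 CPM in sgTaz tumors. Both showed no overlap between groups, with log2 fold changes of -0.35 ± 0.08 and -0.51 ± 0.11 (SE; edgeR, adjusted p = 0.0896 for each). Rbx1, a subunit of the VHL ligase, had a log2 fold change of -0.20 ± 0.07 (SE), and Arnt2, a partner of HIF α subunits at 0.959 to 3.95 CPM, of 0.94 ± 0.39 (SE).

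Among 13 tested further genes of glycolysis, 3 were higher and 0 lower before adjustment (9.86% and 11.9% of all genes). Eno3, the muscle enolase, was at 80.6 to 95.1 CPM in sgCon and at 95.5 to 123 CPM in sgTaz tumors, with a log2 fold change of 0.28 ± 0.08 (SE; edgeR, adjusted p = 0.110). Hk3, a hexokinase of myeloid cells, was at 21.2 to 36.4 CPM in sgCon and at 34.8 to 46.6 CPM in sgTaz tumors, with a log2 fold change of 0.51 ± 0.16 (SE; edgeR, adjusted p = 0.117), and the part of macrophages, whose marker sum was above every sgCon tumor in 4 of 5 sgTaz tumors, was not tested. Slc16a7, which encodes the lactate carrier MCT2, had a log2 fold change of 0.72 ± 0.21 (SE). Of the reads of the 3 hexokinases per kilobase of exon, Hk3 held 11.4% to 22.4% in sgCon tumors and 19.1% to 25.0% in sgTaz tumors, and Hk2 held 36.0% to 56.0% and 41.0% to 43.7%. Of 12 genes of pyruvate entry into mitochondria, 2 were higher and 0 lower before adjustment (again beside 9.86% and 11.9%), the kinase Pdk2 and the pyruvate dehydrogenase subunit Dlat, with log2 fold changes of 0.43 ± 0.17 and 0.18 ± 0.07 (SE; edgeR, adjusted p = 0.171 and 0.191).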

How the data were processed

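The authors sequenced total RNA of 10 whole 4T1 tumors, 5 sgCon and 5 sgTaz, on a HiSeq instrument. Reads were aligned with STAR to GRCm38 and counted per gene with featureCounts of Subread, per the labels and methods; the strand setting of the counting is not given in the sources used here. The deposited values are whole-number counts of the authors for 17864 genes, without normalization. The table holds 5 further columns, not used here. Groups were taken from the sample labels.

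Identifiers were matched to GENCODE M21 (17860 of 17864), which also gave positions and exon lengths. The main test was the quasi-likelihood one of edgeR 4.0.16 under R 4.3.3, with TMM normalization, the filter filterByExpr (14816 genes kept) and p adjusted by Benjamini-Hochberg over all genes kept. DESeq2 1.42.0 and limma 3.58.1 were run beside it. Values were plotted with matplotlib 3.10.9 under Python 3.11.15. CPM were computed on TMM-normalized library sizes. At this depth, 3 counts correspond to 0.150 to 0.243 CPM, a floor that covers counting error only. Tumors of a group always differed by more than sampling noise. The scripts were tested on simulated data.

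Members, pathway lists and marker lists were chosen with earlier results of these data known. Values in every tumor are given for Stc1, for members without overlap between groups or with an unadjusted p below 0.05, and for Stc2, Hif1a, Epas1, Slc2a1, Hk2, Ldha, Pdk1, Car9, Egln3 and Bnip3. Of each other pathway list, up to 4 genes with the smallest p below 0.05 are named. The alternatives tried were other tests (DESeq2 and limma-voom, the latter weighting samples by quality), other scalings (upper quartile and RLE), another filter (none, or a minimum of 10 counts per tumor), leaving out each tumor, a replicate block, length and GC offsets, and block plus offsets. No protein sequences are printed.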

Additional observations from a re-analysis of the deposited data

Results flagged for a closer look

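In each of the 84 groups of 5 values (42 members in 2 groups of tumors), the gap of the highest or lowest log2 CPM to its nearest neighbour was set against the whole range of the group by Dixon's criterion. This marked 4 groups, where chance marks about 4.2 of 84. Pdk1 was at a log2 CPM of 5.11 in sgCon tumor 1, and between 4.64 and 4.71 in the other 4 sgCon tumors. The other 3 were in sgTaz tumor 2, the sgTaz tumor with the most epithelial and skeletal muscle marker RNA. It also had the least macrophage, endothelial, lymph node stroma, adipocyte and erythroid marker RNA of the sgTaz tumors. Pfkfb3 was at 5.95 there and between 6.65 and 6.88 in the other sgTaz tumors, Bnip3 was at 7.34 against 6.42 to 6.67, and Ndrg1 was at 9.29 against 8.59 to 8.74.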

How the results depend on the processing

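Counts of members are over the 41 other than Stc1. After adjustment, members higher in sgTaz numbered 0 in edgeR (0.00675% of all genes) and 1 in both DESeq2 (3.68%) and limma-voom (4.63%), and members lower in them numbered 0, 4 and 7 (0%, 3.68% and 5.8%). Of the 78 other pathway genes tested, 0, 9 and 14 passed after adjustment in either direction. In these fits, 0.00675%, 3.68% and 4.63% of all genes were called higher and 0%, 3.68% and 5.8% lower. At an unadjusted p below 0.05, limma-voom called 16 members lower (16.8% of all genes), against 10 (11.9%) in edgeR. Pathway genes at that p numbered 30 in limma-voom (14% of all genes were higher and 16.8% lower) and 19 in edgeR (9.86% and 11.9%). With each tumor left out in turn, members higher numbered 0 to 0 and members lower 0 to 1 after adjustment (0% to 0.28% and 0% to 0.868% of all genes), and 1 to 3 and 6 to 14 before it (6.88% to 11.1% and 8.46% to 13.4%). The highest count of members lower, 14, was without sgTaz 2, and the lowest, 6, without sgCon 5 or sgTaz 5. More members were higher without sgCon 2 (2) and sgTaz 2 (3). Other pathway genes in either direction numbered 0 to 1 after adjustment (1 without sgCon 4, Tgfb3). In these fits 0% to 0.28% of all genes were higher and 0% to 0.868% lower. Before adjustment they numbered 14 to 25, where 6.88% to 11.1% of all genes were higher and 8.46% to 13.4% lower. The median log2 fold change of the 42 members was between -0.134 and -0.062. The replicate numbers did not pair the tumors: deviations of same-numbered tumors correlated between -0.24 and 0.22. With the replicate block and offsets for GC content and length, 4 members were lower at an unadjusted p below 0.05 (9.04% of all genes). In that fit 12 pathway genes passed at this p, where 7.38% of all genes were higher and 9.04% lower.

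Over 55 genes, the 41 members, the named pathway genes and Wwtr1, 991 of 1045 values kept direction and side of the threshold, 32 passed it anew and 22 changed sign. With a tumor left out, those that changed sign ranged from -0.82 to 0.0132 for Stc2 (positive without sgCon 3), -0.12 to 0.14 for Hk2 (positive without sgCon 1), -0.21 to 0.093 for Epas1 (positive without sgCon 3, or sgTaz 2 at 0.0297), -0.0096 to 0.0507 for Hk1, -0.0066 to 0.0838 for Pfkp, -0.0066 to 0.0865 for Pfkm, -0.1322 to 0.0303 for Pgam1, -0.0432 to 0.1631 for Adm and -0.1477 to 0.0205 for Ero1l. In limma-voom Stc2 was at 0.0005 and Epas1 at 0.047. Hk2 was at 0.0045 with the replicate block and 0.0059 with block and offsets. Pfkp was at -0.0376 with offsets and -0.0358 with block and offsets, where Pgam1 was at 0.0128 and 0.0357. The cause was not tested. With 5 tumors a group, differences as small as those of most enzymes lie within the spread between tumors.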

Other observations

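Summed levels of further marker lists were also taken in each tumor. Neutrophil markers, of which 7 of 8 were tested and 7 had a negative log2 fold change, summed to between 176 and 719 CPM in sgCon and between 68.7 and 272 CPM in sgTaz tumors. Endothelial markers summed to 466 to 662 CPM in sgCon and 390.0 to 744 CPM in sgTaz tumors, and fibroblast markers to 1511 to 4665 CPM and 1693 to 4658 CPM. Adipocyte markers summed to 55.5 to 127 CPM and 40.9 to 262 CPM, skeletal muscle markers to 8.56 to 51.5 CPM and 6.75 to 31.7 CPM, and erythroid genes to 22.3 to 60.4 CPM and 6.20 to 91.8 CPM. The 15 glycolytic enzymes together took 0.798% to 0.914% of the counts of a tumor in sgCon and 0.723% to 0.870% in sgTaz tumors.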
